A study of Mus musculus with 6 samples.

Results

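The genes described here encode ion channels, their accessory subunits, ion pumps and proteins that move or store calcium. They were taken by gene symbol from a deposited table of 2031 genes: protein-coding genes whose symbols begin with the families of potassium (Kcn), calcium (Cacn), sodium (Scn), pacemaker (Hcn), chloride (Clcn, Clca, Clic, Ano), TRP and Piezo channels, of transmitter- and ATP-gated channels, of calcium store proteins and sodium-calcium exchangers, of ATP-driven pumps and of connexins, with Pln, Sln and Trdn by name. The rule found 48 genes. RNA had been sequenced from cells derived from J1, a single mouse embryonic stem cell line of strain 129S4/SvJae, which were induced towards heart muscle as hanging-drop embryoid bodies that formed over 3 days. The control group, NC, was kept in a conventional incubator (3 libraries). The exposed group, MF, was kept in a static magnetic field incubator (3 libraries). How strong the field was, how long it acted and when cells were collected were not stated in any source read here. The authors had put a gene in the table for its difference between the groups, since no adjusted p there is above 0.0499 and no log2 fold change is smaller than 1.001 in size. Channel genes outside it, whatever their level, were not analysed here, and no result below says that a gene did not differ.

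Ion channels let potassium, sodium, calcium or chloride cross the cell membrane, and together they set the resting potential and shape the action potential. In the developing heart, hyperpolarisation-activated and T-type calcium channels contribute to spontaneous beating, inward rectifier potassium channels hold the resting potential, and calcium entering through voltage-gated channels releases more calcium from the sarcoplasmic reticulum. The sodium-calcium exchanger and the reticulum's calcium pump, which phospholamban (Pln) restrains, then bring calcium down again. Many of the same channel families also serve neurons, kidney epithelium and germ cells, so the expression of a family member alone does not name a cell type.

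Of the 48 genes, 40 were higher in MF and 8 were lower in the authors' deposited table. That is 83.3%, against 63.2% of all 2031 genes in the table. Only 25 of the 48 genes had a mean of at least 0.5 FPKM (fragments per kilobase of gene, scaled to the library total) over the 6 libraries and were tested. In edgeR's quasi-likelihood test, with p-values adjusted by Benjamini-Hochberg over the 1651 tested genes of the table, 21 of the 25 rose and 4 fell. "Rose" and "fell" are used below for an adjusted p under 0.05 in this test. Since the table had been selected for a difference in the same libraries, 97.5% of all tested genes were called (62.1% higher and 35.4% lower), and a call of all 25 adds nothing about channel genes as a group. The median log2 fold change was 1.91 over the 25 genes and 1.22 over all tested genes. The other 23 genes lay below 0.5 FPKM. In a fit without that filter all 48 had an adjusted p under 0.05, where 97.7% of 1983 named genes did. The FPKM ranges of the 2 groups did not overlap for 42 of the 48 genes, against 93.0% of all named genes, and for 22 of the 25 tested ones, against 92.5% of all tested genes. Kcnb2, Kcne3, Kcnk3, Cacna1d and Trpc5os were among the 6 genes with overlapping groups.

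These calls rest on few libraries. Without MF replicate 3 the test called 0 of the 25 genes (19 had an unadjusted p under 0.05), and the share of all tested genes called fell to 0.727%. DESeq2, with all libraries and its own size factors, called 10 genes higher and 4 lower, and 52.2% of all tested genes. Without MF replicate 1 the edgeR calls were 13 and without NC replicate 1 they were 15. Without NC replicate 2 they were 19 and without NC replicate 3 they were 21. The shares of all tested genes called were 27.1%, 38.8%, 44.5% and 61.3% in the same order. Without MF replicate 2 all 25 were called, as were 95.6% of all tested genes. Slc8a1, Kcnk3, Fxyd2, Kcnj2, Kcnq5, Fxyd1, Hcn4, Cacna1h, Gjb2 and Cacna2d1 were among the genes called whichever library other than MF replicate 3 was left out. Scaling by the genes of the table (TMM, DESeq2's size factors or quantile normalization), instead of by library totals, moved the median of all tested genes by -0.70, -1.06 and -0.40 on the log2 scale, the last against limma on log2(FPKM + 1). The split of calls was then 9 higher and 4 lower with TMM, 10 and 4 with DESeq2, and 9 and 4 with quantile normalization. Over all tested genes it was 291 higher and 589 lower with TMM, 263 and 599 with DESeq2, and 381 and 549 with quantile normalization. The shares of all tested genes called were 53.3%, 52.2% and 56.3% in this order. Slc8a1, Hcn4, Kcnj2, Cacna1h, Fxyd1, Gjb2, Kcnk5 and Fxyd2 were among the 10 genes called under all 3 scalings. Cacna2d2, Clcn5, Clic5, Gria3, Grin2c, Grin2d, Piezo2, Scn2b and Trpc5os were called under 0 of them, and the direction of Clcn5 turned with DESeq2's size factors (log2 fold change -0.0393). These scalings take most genes as unchanged. The table does not meet this, as it was selected for a difference and 63.2% of it was higher in MF. A call lost or a direction turned under them therefore cannot be told apart from the shift of the scaling. When adjusted for 19069 tests, the number worked back from the authors' p-values, edgeR called 0 of the 25. All 25 had an unadjusted p under 0.05, and 0 of all 1651 tested genes were called.

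**Figure D1:**
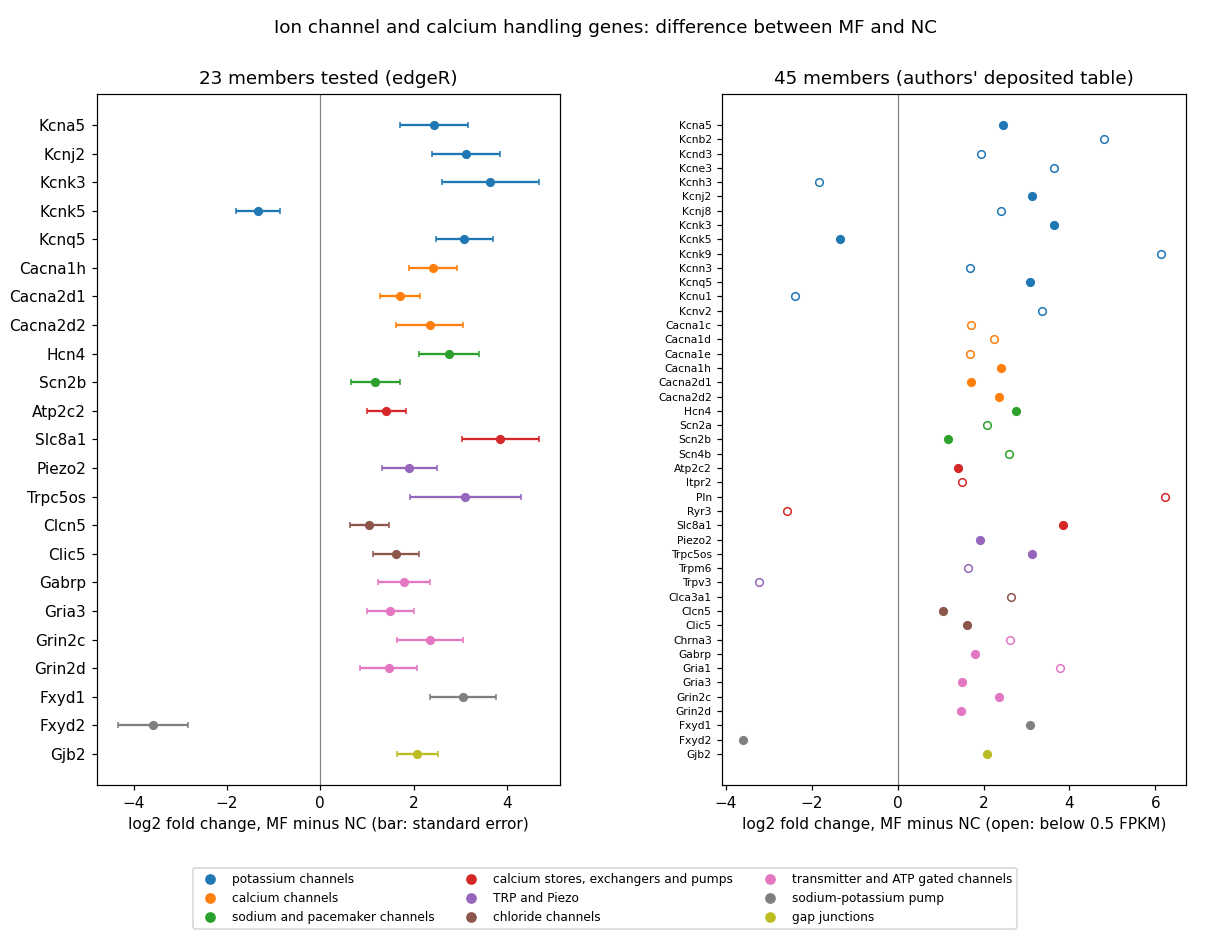
Difference between MF and NC in log2 units for 23 of the genes tested with edgeR (left, bars are standard errors) and for 45 of the 48 genes as given in the authors' deposited table (right, open symbols for the 22 drawn genes below 0.5 FPKM), coloured by role. In the right panel 39 genes lie above 0 and 6 below, and Pln, at 6.22, lies farthest to the right.

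The libraries of each group were not alike. Among the 40 genes higher in MF, 31 (77.5%) had their lowest MF level in replicate 2, as had 78.5% of the 1284 table genes higher in MF. Their median, on the log2(FPKM + 0.1) scale and relative to the NC mean, was 1.56 and 1.63 in MF replicates 1 and 3 but 0.99 in MF replicate 2. For the 8 genes lower in MF it was -1.68 and -2.06 in these 2 libraries but -0.87 in MF replicate 2. In NC, 6 of these 8 genes (75%) were highest in replicate 2, as were 82.5% of the 747 table genes lower in MF. The median of the 8 genes in that library was 0.68 above the NC mean. In the whole table MF replicate 2 had the smallest median of the MF libraries too, with 1.75, 1.06 and 1.71 in replicates 1 to 3 over the genes higher in MF. In 6 of the 40 genes (15%) replicate 2 had the highest level in MF, as it had in 11.2% of the 1284 table genes. The 6 genes were Pln, Chrna3, Kcnk9, Kcnd3, Scn4b and, by little, Scn2a. Together the 48 genes took between 0.0237% and 0.0260% of the counts in NC libraries, and 0.0710%, 0.0416% and 0.0682% in MF replicates 1, 2 and 3.

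**Figure D2:**
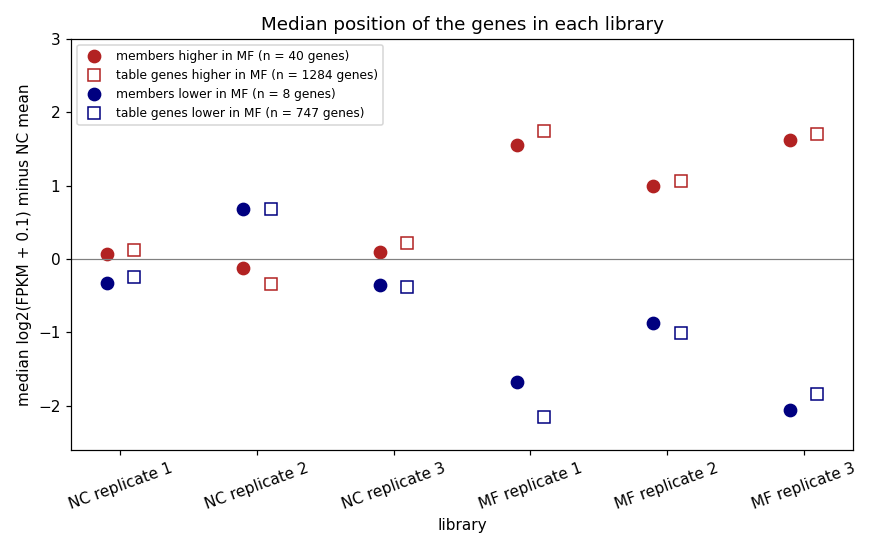
Median of log2(FPKM + 0.1) minus the NC mean, by library, for the 40 member genes higher and the 8 lower in MF (filled circles) and for the 1284 higher and 747 lower genes of the whole table (open squares). MF replicate 2 lies nearer to 0 than the other MF libraries in each set, at 0.99 for the higher and -0.87 for the lower member genes.

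**Figure D3:**
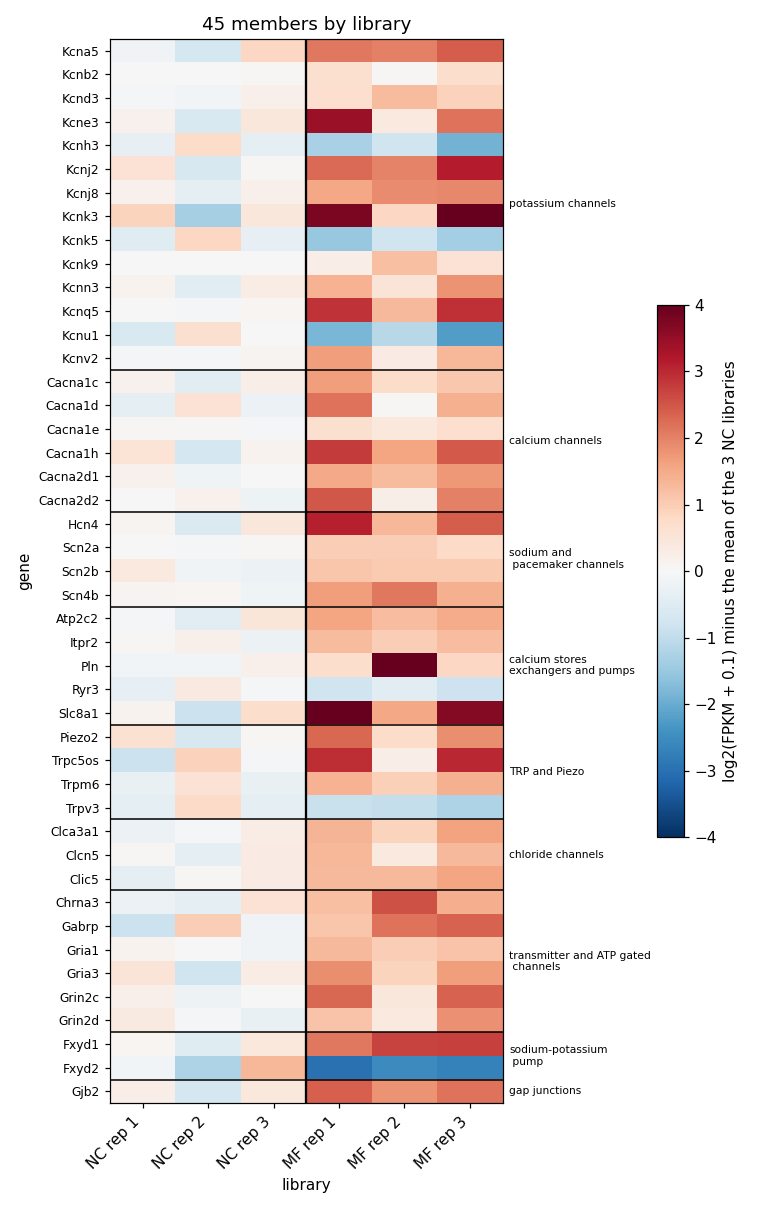
Level of 45 of the 48 genes in each library as log2(FPKM + 0.1) minus the mean of the 3 NC libraries, grouped by role. Red is above and blue below the NC mean, and the colours stop at 4. Pln is darkest in MF replicate 2, whereas Slc8a1 and Kcnk3 are darkest in MF replicates 1 and 3.

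Potassium channels formed the largest family, with 14 genes, of which 11 were higher and 3 lower in MF, where 63.2% of the table was higher. Of the 5 that were tested, 4 rose and 1 fell, where 97.5% of all tested genes were called. Kcnj2 encodes the inward rectifier that holds the resting potential of heart muscle (mm10 chromosome 11, 111066164 to 111076821). It stood at 0.235, 0.0456 and 0.135 FPKM in NC replicates 1 to 3 and at 0.987, 0.798 and 1.87 FPKM in MF replicates 1 to 3. Every MF library lay above every NC library. Kcnj2 rose from 0.139 ± 0.0946 to 1.22 ± 0.574 FPKM (SD, n = 3), an 8.73-fold rise (log2 fold change 3.13, SE 0.73, adjusted p = 0.0153 by edgeR), and 13.3-fold without NC replicate 1.

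Kcnq5, a subunit of slowly activating channels that carry the M-current in neurons, was even in NC, at 0.183, 0.161 and 0.192 FPKM. In MF it was at 1.98, 0.581 and 2.01 FPKM, so that replicate 2 was the lowest but still above NC. It rose 8.48-fold (SE 0.61 on the log2 scale, adjusted p = 0.0119 by edgeR). Kcna5 encodes the pore of the ultrarapid delayed rectifier of atrial muscle. Its levels were 0.179, 0.0868 and 0.445 FPKM in NC and 1.20, 1.12 and 1.52 FPKM in MF, with all MF libraries alike. The rise was 5.39-fold (adjusted p = 0.0236 by edgeR), or 9.52-fold without NC replicate 3. The call of Kcna5 was lost with TMM scaling, and that of Kcnq5 with quantile normalization.

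Acid-sensitive leak channels of the Kcnk family went in opposite directions. Kcnk3, a background potassium channel, was at 0.514, 0.0312 and 0.354 FPKM in NC and at 4.41, 0.494 and 6.37 FPKM in MF. MF replicate 2 lay below NC replicate 1, so the groups overlapped. The exons of Kcnk3 share 5.76% of their bases with Gm9899 on the other strand. Kcnk3 rose 12.5-fold (log2 fold change 3.64, SE 1.04, adjusted p = 0.0228 by edgeR), 19.5-fold without NC replicate 1 and 8.15-fold without MF replicate 3, and its call was lost with quantile normalization. Kcnk5, an alkaline-activated relative found in epithelia (mm10 chromosome 14, 20140057 to 20181809), had the highest mean level of the potassium channel genes in NC. It stood at 6.77, 17.1 and 7.63 FPKM in NC, with NC replicate 2 far above the others, and at 3.26, 5.54 and 3.66 FPKM in MF. In MF Kcnk3 was higher than Kcnk5 in replicates 1 and 3, and their means did not differ beyond their spread. Kcnk5 fell from 10.5 ± 5.72 to 4.16 ± 1.22 FPKM (SD, n = 3), a 2.53-fold fall (adjusted p = 0.0301 by edgeR), with no overlap. The call was lost without NC replicate 2 (log2 fold change -0.793, adjusted p = 0.0874 by edgeR). It was also lost without MF replicate 1 (adjusted p = 0.0915 by edgeR). Kcnk9, a relative of Kcnk3, had 0 counts in all NC libraries and 42 counts over the MF libraries. It was at least 12.5-fold higher against 3 counts over the NC group, and MF replicate 2 was highest at 0.131 FPKM against 0.0212 and 0.05 FPKM.

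The other potassium channel genes lay below the filter. Kcnj8, the pore of an ATP-sensitive channel of vascular muscle, was at 0.0731 to 0.158 FPKM in NC and 0.553 to 0.747 FPKM in MF. Kcnn3, a calcium-activated channel of small conductance, was at 0.125 to 0.263 FPKM in NC and 0.330 to 0.946 FPKM in MF. Kcnd3, which carries transient outward current in heart and brain, was at 0.0388 to 0.0699 and 0.136 to 0.255 FPKM. These 3 genes had higher levels in every MF library than in any NC library.

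Kcne3, Kcnv2 and Kcnb2 were higher in MF mainly in replicates 1 and 3. Kcne3, a small accessory subunit, was at 1.58 and 0.587 FPKM in MF replicates 1 and 3 but at 0.100 FPKM in MF replicate 2, below the 0.113 FPKM of NC replicate 3. Kcnv2, a silent subunit that modifies other channels, was at 0.276, 0.0466 and 0.192 FPKM in MF and at most 0.0262 FPKM in NC. Kcnb2, a delayed rectifier, had 1 count in NC and 34 in MF, a ratio of 30.4 with an exact 95% counting interval from 5.10 to 1235. Kcnh3, of a brain-enriched voltage-gated family, and Kcnu1, a channel of sperm, were lower in MF, with NC replicate 2 highest in both. Kcnh3 was at 0.361 to 0.895 FPKM in NC and 0.0640 to 0.248 in MF, and Kcnu1 at 0.359 to 0.997 and 0.0493 to 0.223 FPKM.

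All 6 calcium channel genes were higher in MF, and the 3 tested ones rose. Cacna1h, a pore subunit of T-type calcium channels that open at low voltage (mm10 chromosome 17, 25374285 to 25433783), had the highest level among them. It was at 1.15, 0.426 and 0.851 FPKM in NC and at 5.85, 2.44 and 4.58 FPKM in MF. The groups did not overlap. Cacna1h rose from 0.809 ± 0.365 to 4.29 ± 1.72 FPKM (SD, n = 3), a 5.30-fold rise (log2 fold change 2.41, SE 0.51, adjusted p = 0.0128 by edgeR). The alpha-2-delta subunits help bring the pore to the membrane. Cacna2d1 was at 0.530, 0.395 and 0.469 FPKM in NC and 1.5, 1.26 and 1.78 FPKM in MF, with little spread in either group. It rose 3.25-fold (adjusted p = 0.0175 by edgeR), a call lost with quantile normalization. Cacna2d2 was at 0.135 to 0.203 FPKM in NC and at 1.40, 0.217 and 0.974 FPKM in MF, where replicate 2 came close to NC. It rose 5.09-fold (adjusted p = 0.0243 by edgeR) and 7.77-fold without both replicate 2 libraries.

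The 3 remaining pore subunits lay below 0.5 FPKM. Cacna1c, the main L-type pore of heart muscle, was at 0.149, 0.0653 and 0.168 FPKM in NC and at 0.611, 0.272 and 0.371 FPKM in MF, without overlap. Its counts ran from 23 to 55 in NC and from 100 to 256 in MF. Cacna1d, the L-type pore that takes part in pacemaking, was at 0.670 and 0.360 FPKM in MF replicates 1 and 3. In MF replicate 2 it was at 0.0745 FPKM, below the 0.155 FPKM of NC replicate 2. Its exons share 4.67% of their bases with Chdh on the other strand. Cacna1e, an R-type pore, was at 0.0212 to 0.0329 FPKM in NC and 0.0731 to 0.105 FPKM in MF.

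Hcn4 and Scn2b rose among the genes of pacemaker and sodium channels. Hcn4, the main channel of the pacemaker current in the sinoatrial node (mm10 chromosome 9, 58823412 to 58863175), was at 0.303, 0.152 and 0.416 FPKM in NC and at 3.15, 0.837 and 1.90 FPKM in MF. Each MF library was above all NC libraries, and MF replicate 1 was the highest. The change had a log2 fold change of 2.75 with an SE of 0.65 (adjusted p = 0.0153 by edgeR).

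Scn2b encodes an accessory subunit of voltage-gated sodium channels. It was at 0.658, 0.427 and 0.388 FPKM in NC and at 1.16, 1.09 and 1.10 FPKM in MF, and the MF libraries were close together. Scn2b rose 2.27-fold (SE 0.52 on the log2 scale), and its adjusted p of 0.0485 by edgeR was the highest among the 25 genes. Scn4b, another such subunit, was at 0.103, 0.0997 and 0.0672 FPKM in NC and 0.502, 0.717 and 0.407 FPKM in MF, without overlap. Scn2a, a pore subunit of neurons, was at 0.0338 to 0.0416 and 0.134 to 0.176 FPKM. In these 3 genes MF replicate 2 did not stand below the other MF libraries by the margin seen in Hcn4.

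Scn2b and Scn4b lie side by side on mm10 chromosome 9, at 45117782 to 45130070 and 45138395 to 45154152 on the same strand, with 8324 bases between them. Fxyd2, which fell, lies 245516 bases beyond Scn4b. The stretches before a RefSeq start of the pair are shown because the neighbours were higher together. That of Hcn4 is shown because it had the largest difference among the tested genes of this role. Each is the 250 bases before a RefSeq transcript start in build GRCm38.p6, on the plus strand. They lie at chr9:45117626-45117875 for Scn2b, chr9:45138374-45138623 for Scn4b and chr9:58822699-58822948 for Hcn4. These starts differ from the gene starts given above. The Scn4b stretch lies largely, and the Scn2b stretch in part, inside the gene span, while the Hcn4 stretch ends before it. Capitals mark a match to any of 5 motifs searched on both strands: AGATAA of GATA factors, AGGTGT of T-box factors, CATTCC of TEAD factors, the MEF2 box and the CArG box. The motifs can overlap one another, and a match is a description of the letters only.
Scn2b: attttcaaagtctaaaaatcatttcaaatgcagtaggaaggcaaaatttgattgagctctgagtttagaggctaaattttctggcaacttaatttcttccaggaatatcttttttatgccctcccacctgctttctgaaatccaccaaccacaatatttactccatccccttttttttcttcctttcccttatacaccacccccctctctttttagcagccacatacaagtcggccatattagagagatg
Scn4b: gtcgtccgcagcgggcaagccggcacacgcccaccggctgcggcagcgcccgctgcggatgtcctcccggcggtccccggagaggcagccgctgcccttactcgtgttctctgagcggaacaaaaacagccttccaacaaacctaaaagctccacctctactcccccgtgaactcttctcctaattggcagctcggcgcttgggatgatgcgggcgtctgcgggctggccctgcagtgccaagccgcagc
Hcn4: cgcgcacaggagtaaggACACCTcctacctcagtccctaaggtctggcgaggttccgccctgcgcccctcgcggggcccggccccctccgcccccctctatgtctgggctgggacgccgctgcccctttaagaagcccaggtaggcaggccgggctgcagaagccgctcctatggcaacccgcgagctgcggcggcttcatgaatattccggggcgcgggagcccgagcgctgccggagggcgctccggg
The Scn2b stretch is 38.4% G and C with 1 CpG, whereas the Scn4b stretch is 66.0% G and C with 23. The Hcn4 stretch is 71.2% G and C with 25 CpG and carries an AGGTGT match on the minus strand, its first base at -233 from the start. Such a match occurs in 11.8% of all 32851 promoters of this length.

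Among the genes of calcium stores, exchangers and pumps, 4 were higher in MF and Ryr3 was lower, where 63.2% of the table was higher. Slc8a1 encodes the sodium-calcium exchanger of heart muscle, which removes calcium after each beat (mm10 chromosome 17, 81373105 to 81738377). It stood at 0.211, 0.0528 and 0.356 FPKM in NC and at 4.82, 0.709 and 3.43 FPKM in MF. MF replicate 2 was above all NC libraries but several times below the other MF libraries. The log2 fold change was 3.85 with an SE of 0.83 (adjusted p = 0.0130 by edgeR), and without NC replicate 3 the fold was 22.6. Atp2c2, a pump that loads calcium and manganese into the secretory pathway, was at 3.47, 2.60 and 5.11 FPKM in NC and 10.8, 8.63 and 10.3 FPKM in MF. It rose from 3.73 ± 1.28 to 9.94 ± 1.16 FPKM (SD, n = 3), a 2.66-fold rise (adjusted p = 0.0234 by edgeR), and the call was lost with TMM and with DESeq2's size factors.

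Pln, the small inhibitor of the reticulum's calcium pump (mm10 chromosome 10, 53337667 to 53345987), followed another pattern among the libraries. It was at 0, 0 and 0.0243 FPKM in NC and at 0.0756, 1.70 and 0.0891 FPKM in MF, so MF replicate 2 alone stood high. Its 87 MF counts comprised 4 in replicate 1, 79 in replicate 2 and 4 in replicate 3, against 1 count in NC. The ratio of 77.7 had an exact counting interval from 13.6 to 3106, which covers counting error only and not the difference between MF libraries. In GENCODE vM21 a transcript on the other strand, Gm47644, covers 59.6% of its exon bases, and Cep85l covers 5.11%. Whether counting used strand was not stated. Cep85l was at 1.46, 1.09 and 1.66 FPKM in MF replicates 1 to 3, and Gm47644 is not in the table. The part of either in the Pln values was not tested.

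Itpr2, an inositol trisphosphate receptor that releases stored calcium, was at 0.211, 0.243 and 0.154 FPKM in NC and at 0.620, 0.499 and 0.606 FPKM in MF, with all MF libraries alike. Ryr3, a ryanodine receptor of skeletal muscle and brain, was at 0.0471, 0.134 and 0.0777 FPKM in NC and at 0.0055, 0.0345 and 0.00324 FPKM in MF. It was lower without overlap, and its MF values rest on 2, 11 and 1 counts. Aven, whose exons cover 4.83% of its exon bases on the other strand, was lower in MF too. The stretches before a RefSeq start of Slc8a1, at chr17:81738388-81738637 on the minus strand, and of Pln, at chr10:53337436-53337685 on the plus strand, are shown because these genes had the largest differences of the role. They are from RefSeq as above, with the same motifs in capitals. The Pln stretch runs a little past the gene start given above.
Slc8a1: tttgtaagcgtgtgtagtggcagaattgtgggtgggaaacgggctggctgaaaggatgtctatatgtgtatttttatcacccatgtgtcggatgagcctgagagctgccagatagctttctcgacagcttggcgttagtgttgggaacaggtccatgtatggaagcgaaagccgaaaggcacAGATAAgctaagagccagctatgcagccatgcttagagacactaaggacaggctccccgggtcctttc
Pln: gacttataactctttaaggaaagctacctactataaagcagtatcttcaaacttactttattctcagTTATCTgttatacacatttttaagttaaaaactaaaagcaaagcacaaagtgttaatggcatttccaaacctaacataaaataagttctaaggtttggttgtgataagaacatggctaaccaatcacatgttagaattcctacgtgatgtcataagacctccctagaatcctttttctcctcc
Each carries 1 AGATAA match, at -68 from the start on the gene's own strand in Slc8a1 and at -183 on the opposite strand in Pln. Over the 39 windows that RefSeq gave for 32 of the 48 genes, AGATAA occurred in 10.3%, against 9.99% of all windows. AGGTGT occurred in 10.3% against 11.8%, and CATTCC in 10.3% against 12.6%. The MEF2 box occurred in 2.56% against 2.92%, and the CArG box in 0 of the 39, against 1.47% of all windows.

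**Figure D4:**
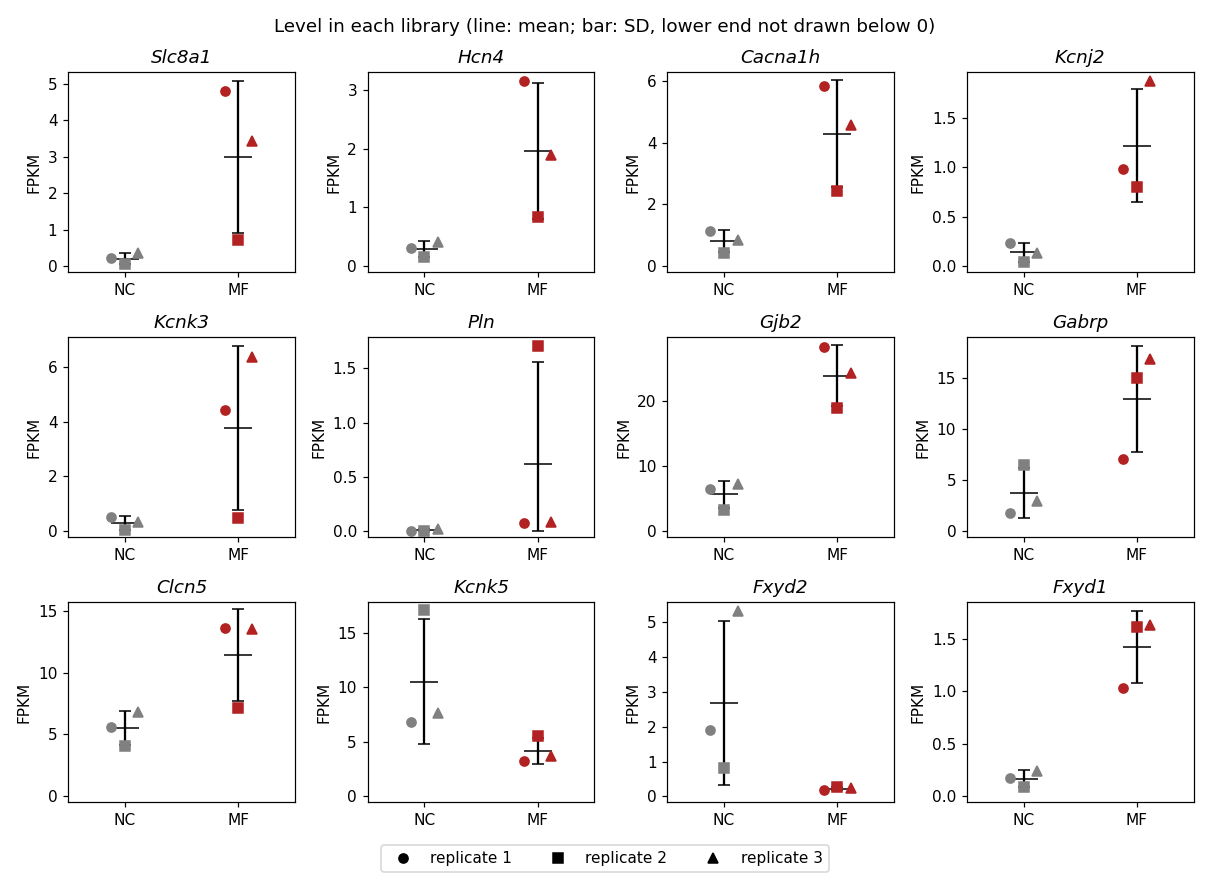
FPKM in each library for 12 of the genes, with replicates 1, 2 and 3 as circles, squares and triangles, the mean as a line and the SD as a bar. The MF libraries of Gjb2 lie between 19.0 and 28.3 FPKM, all above NC, while Pln is high in MF replicate 2 alone at 1.70 FPKM.

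Of the TRP and Piezo genes, Piezo2 and Trpc5os rose. Piezo2, a mechanically gated cation channel of touch and proprioception, was at 0.588, 0.188 and 0.363 FPKM in NC and 2.11, 0.649 and 1.52 FPKM in MF. Its groups were separated by little, as MF replicate 2 was close to NC replicate 1. It rose 3.75-fold (adjusted p = 0.0243 by edgeR). Trpc5os is named for its place opposite the channel gene Trpc5 and is not itself known as a channel. It was at 0, 0.242 and 0.0747 FPKM in NC and at 1.31, 0.116 and 1.35 FPKM in MF, with overlap. Its rise of 8.57-fold (adjusted p = 0.0334 by edgeR) was not called with the replicate number as a block (adjusted p = 0.0888), and the fold was 23.9 without NC replicate 2 and 34.4 without both replicate 2 libraries. Trpm6, a magnesium channel of kidney and gut, was at 0.104 to 0.281 FPKM in NC and 0.393 to 0.573 FPKM in MF. Trpv3, a warmth-activated channel of skin, was lower in MF, at 0.0766 to 0.298 FPKM in NC and 0 to 0.0268 FPKM in MF.

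Clcn5 and Clic5 rose among the chloride channel genes. Clcn5, a chloride-proton exchanger of endosomes, was among the most highly expressed genes, at 5.63, 4.08 and 6.86 FPKM in NC and 13.6, 7.10 and 13.5 FPKM in MF. MF replicate 2 exceeded the highest NC library by little. Clcn5 rose 2.07-fold (adjusted p = 0.0357 by edgeR), the smallest rise among the 25 tested channel and calcium handling genes. With DESeq2's size factors, computed on the selected genes, its log2 fold change was -0.0393. Clic5, a protein linked to the actin cortex, was at 0.211 to 0.416 FPKM in NC and 0.893 to 1.11 FPKM in MF and rose 3.06-fold (adjusted p = 0.0243 by edgeR). Clca3a1, a secreted modulator of calcium-activated chloride current with near copies in the genome, was at 0.0164 to 0.0687 and 0.153 to 0.315 FPKM.

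All 6 genes of transmitter-gated channels were higher in MF, where 63.2% of the table was higher. Gabrp, a GABA receptor subunit of epithelia, had the highest level. It was at 1.76, 6.51 and 2.94 FPKM in NC and at 7.06, 15.0 and 16.9 FPKM in MF, so that MF replicate 1 was just above NC replicate 2. Gabrp rose 3.47-fold (adjusted p = 0.0247 by edgeR) and 5.53-fold without NC replicate 2, and its call was lost with TMM and with DESeq2's size factors. The glutamate receptor subunits were Gria1 and Gria3 of the AMPA type and Grin2c and Grin2d of the NMDA type. Gria3 was at 1.5, 0.535 and 1.26 FPKM in NC and at 3.95, 1.97 and 3.42 FPKM in MF, and it rose 2.83-fold (adjusted p = 0.0269 by edgeR). Grin2c was at 0.241, 0.160 and 0.199 FPKM in NC and 1.36, 0.307 and 1.41 FPKM in MF, with replicate 2 near NC, and it rose 5.10-fold (adjusted p = 0.0237 by edgeR). Grin2d rose 2.76-fold (adjusted p = 0.0413 by edgeR), from 0.211 to 0.384 FPKM in NC to 0.393 to 1.24 FPKM in MF. Its exons share 9.66% of their bases with Gm45441 on the other strand.

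The remaining subunits of this role were rare. Gria1 had 3 counts in NC and 46 in MF, a ratio of 13.7 with an exact counting interval from 4.40 to 68.9, and its MF libraries were alike at 0.118 to 0.173 FPKM. Chrna3, a nicotinic receptor subunit of autonomic neurons, was at 0.0607, 0.0472 and 0.178 FPKM in NC and at 0.327, 1.01 and 0.408 FPKM in MF, highest in replicate 2. Of 13 neuron markers, Dcx of migrating neurons is the one in the table. It was at 0.0505, 0 and 0.0794 FPKM in NC and at 0.144, 1.62 and 0.403 FPKM in MF, with the same library highest. The part of neurons in these values was not tested.

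Regulators of the sodium-potassium pump went in opposite directions, as Fxyd1 rose and Fxyd2 fell. Fxyd1, phospholemman, which regulates the pump in heart and skeletal muscle, was at 0.175, 0.0852 and 0.245 FPKM in NC and at 1.03, 1.61 and 1.63 FPKM in MF. It rose 8.30-fold (log2 fold change 3.05, SE 0.70, adjusted p = 0.0151 by edgeR), and MF replicate 2 was as high as replicate 3. Fxyd2, the pump's gamma subunit in kidney (mm10 chromosome 9, 45399669 to 45410278), was at 1.90, 0.821 and 5.32 FPKM in NC and at 0.169, 0.268 and 0.230 FPKM in MF. Its fall was even across MF libraries, with a log2 fold change of -3.58 and an SE of 0.75 (adjusted p = 0.0124 by edgeR), while the fold was 6.08 without NC replicate 3, where its level was highest, and the log2 fold change was -4.17 without both replicate 2 libraries.

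Gjb2, the only connexin gene in the table, encodes a gap junction protein of epithelia and the inner ear (mm10 chromosome 14, 57098600 to 57104702). It had the highest MF level of the 48 genes per unit of length. Its levels were 6.48, 3.25 and 7.24 FPKM in NC and 28.3, 19.0 and 24.2 FPKM in MF, without overlap. Gjb2 rose from 5.66 ± 2.12 to 23.9 ± 4.70 FPKM (SD, n = 3), a 4.22-fold rise (log2 fold change 2.08, SE 0.44, adjusted p = 0.0123 by edgeR). After it, the MF means of Gabrp (13.0 ± 5.22 FPKM), Clcn5 (11.4 ± 3.73 FPKM) and Atp2c2 (9.94 ± 1.16 FPKM) did not differ beyond their spread. The genes tied to the heart's rhythm were lower in level, with MF means of 4.29 FPKM for Cacna1h, 2.99 FPKM for Slc8a1, 1.96 FPKM for Hcn4 and 1.22 FPKM for Kcnj2.

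A list of 67 other genes of calcium handling and excitability had 15 members in the table, 13 higher and 2 lower in MF. Of the 11 tested, 8 rose and 2 fell, where 97.5% of all tested genes were called and 63.2% of the table was higher in MF. Fgf11 did not pass (2.44-fold, adjusted p = 0.0516 by edgeR). Popdc2 and Bves encode cAMP-binding membrane proteins of heart muscle. Popdc2 was at 0.271, 0.368 and 1.19 FPKM in NC and 9.70, 1.69 and 10.6 FPKM in MF and rose by a log2 fold change of 3.58 (adjusted p = 0.0153 by edgeR). Bves was at 0.256 to 0.610 FPKM in NC and 4.56, 0.697 and 4.26 FPKM in MF, and it rose 6.50-fold (adjusted p = 0.0207 by edgeR). In both, as in Slc8a1, MF replicate 2 was the lowest MF library.

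Hrc, a calcium-binding protein of the reticulum, behaved more evenly, at 0.523, 0.919 and 1.41 FPKM in NC and 4.55, 3.64 and 4.72 FPKM in MF. It rose 4.52-fold (adjusted p = 0.0169 by edgeR). The calmodulin kinase genes parted, as Camk2a rose 4.0-fold and Camk2b fell 4.22-fold (adjusted p = 0.0153 and 0.0281 by edgeR). Rem1, which restrains calcium channels, rose 6.09-fold, Slc24a3, a potassium-dependent sodium-calcium exchanger, 3.04-fold, and Adrb1, the beta-1 adrenergic receptor, 2.47-fold. Ank3, an anchor of sodium channels, rose 2.05-fold. Stac2, a partner of calcium channels, fell 4.36-fold with overlapping groups.

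Marker genes of several cell types were also in the table, and 63.2% of all its genes were higher in MF. Of 16 cardiomyocyte markers 14 were in the table and all were higher in MF, with a summed level of 40.6 to 88.5 FPKM in NC and 168 to 742 FPKM in MF. MF replicate 2 had the lowest sum in MF, and 78.5% of all table genes higher in MF were lowest there. However, Myl2, Tnni3 and Nppb were highest in MF replicate 2, at 15.6, 8.19 and 20.9 FPKM. The groups overlapped for Myh7, Actn2 and Myl7. Of 10 fibroblast and mesenchyme markers 9 were in the table, all higher, with sums of 101 to 254 FPKM in NC and 220 to 1129 FPKM in MF, where replicate 2 lay below NC replicate 1. Of the 6 endothelial markers in the table, Cdh5, Kdr, Cd34, Emcn and Esam rose and Pecam1 fell. Their sums overlapped, at 13.5 to 44.5 FPKM in NC and 25.3 to 47.5 FPKM in MF, and Pecam1 made up 38.2 of the 44.5 FPKM in NC replicate 2. Markers of pluripotent cells (4 of 14 in the table) summed to 274 to 750 FPKM in NC and 65.5 to 185 FPKM in MF. Those of germ cells (6 of 9) summed to 40.3 to 172 FPKM in NC and 3.40 to 15.9 FPKM in MF, and in NC both were highest in replicate 2. Skeletal muscle markers (2 of 9, Mylpf and Myh3) summed to 24.6 to 61.4 and 2.63 to 13.0 FPKM. Of the lists for smooth muscle, endoderm, glia and blood 0 genes were in the table. In these bulk samples more cells of a type and more RNA per cell cannot be told apart, and the part of either in the channel values was not tested.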

How the data were processed

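The series holds 6 poly-A RNA-seq libraries, 3 NC and 3 MF. The submitters' processing notes name HISAT2 2.0.5, featureCounts and mm10 but no settings. Per the file headers, the authors deposited a raw count and an FPKM value per gene, a normalized signal, gene length, and their own comparison as a log2 fold change with a raw and an adjusted p-value. Library totals of 14929232 to 19176383 counts were recovered as the median, over well-counted genes, of the count per length divided by the FPKM. A count of 0 allows up to 3 counts, here 0.156 to 0.201 FPKM for a gene of 1 kb. Floors and intervals cover counting error only. Of the 2031 rows, 48 have no gene name (0.0134% to 0.0390% of the totals) and were left untested.

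The 1651 named genes whose mean reached 0.5 FPKM were tested with edgeR 4.0.16 (R 4.3.3) on the counts, with sizes set to those totals, a model of group alone and Benjamini-Hochberg adjustment over those genes; SE is the log2 fold change divided by the root of the F statistic. Since the authors had selected the genes on these libraries, no genome-wide error rate is controlled, and this adjustment was chosen with its count of calls and that over 19069 tests known. The p-values measure the spread between libraries described as biological triplicates. Groups of 1 to 3 counts have a ratio of rates with an exact 95% interval. Alternatives were TMM, DESeq2 1.42.0, limma 3.58.1, other filters, adjustment over the recovered 19069 tests, a replicate block and leaving out each library. Leaving out both replicate 2 libraries was added after seeing the data. The member genes and gene lists were chosen with earlier results of these data known. All 48 symbols matched the reference names by ID; 3 of these genes enter the counts but are not reported here. Every library's value is given for members that average 1 FPKM or more in the group where they are higher, and for others where it shows a library that differs; of the 67 other genes, the 10 called are named.

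The replicate numbers are shared between groups. Across genes, same-numbered libraries deviated together, with correlations of 0.39, 0.55 and 0.32, so the numbers were taken as pairs for the block, though NC replicate 3 correlated more with MF replicate 1 (0.54). That pairing comes from the values, not from a label. No 2 libraries of a group agreed within sampling noise (chi-square per degree of freedom 20.9 to 249.6).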

Additional observations from a re-analysis of the deposited data

How the results depend on the processing

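The 21 higher and 4 lower calls became 0 and 0 when adjusted over the recovered 19069 tests by edgeR, where 25 genes had an unadjusted p under 0.05 and DESeq2, adjusted over the tested genes, called 10 and 4. They became 9 higher with TMM, 9 with quantile normalization, and 10 with DESeq2, each with 4 lower. Of all tested genes, 53.3%, 56.3% and 52.2% were then called, in this order. These scalings were computed on the selected genes alone. Without a filter the calls were 40 and 8 of 48 fitted. With a filter at 2 FPKM they were 7 and 2 of the 9 left. Both follow from the number of genes tested. Leaving out each library in turn gave 0 to 21 higher and 0 to 4 lower, while 0.727% to 95.6% of all tested genes were called. The cause of these differences was not tested. With the replicate number as a block 20 genes were called higher and 4 lower, while 98.1% of all tested genes were called. Trpc5os lost its call and no other did. Limma on log2(FPKM + 1) called 16 and 4, and on log2(FPKM + 0.1) 20 and 4. The shares of all tested genes called by limma were 89.1% and 95.3%. Clcn5 turned to a log2 fold change of -0.0393 with DESeq2; no other of the 25 turned under any alternative run. Medians of the 48 genes against the median of 6 libraries in place of the NC mean were -0.36, -0.56 and -0.39 in NC replicates 1 to 3 and 0.76, 0.22 and 0.85 in MF, in place of 0.05, -0.08 and 0.04 and of 1.38, 0.89 and 1.44, since the reference level was moved. Depth limits Kcnb2, Kcnk9, Pln and Gria1, which had at most 3 counts over NC.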
